A study of Mus musculus with 4 samples.

Results

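Ankyrins and spectrins build the membrane skeleton of neurons, and the peaks of m6A on their transcripts in mouse whole brain are described here. m6A is N6-methyladenosine, a methyl mark on adenosine within mRNA. The genes were Ank1, Ank2, Ank3, Sptan1, Sptbn1 and Sptbn4, 6 of 21951 protein-coding genes of GENCODE M21. They were chosen by name, with earlier results of the same peak lists known, and their peaks were selected on overlap of at least 1 bp with any annotated exon of the gene (genome build mm10). By this rule 67 of 38533 peaks of replicate 1 and 69 of 30134 peaks of replicate 2 belonged to them. Since the peaks themselves chose what is described, their numbers, positions and enrichments are descriptions and carry no test.

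The series held 4 samples of whole brain from mice of 4 weeks, labelled strain C57BL/6J, and its design text gives the genotype of the mice as Prrc2a flox/flox. No Cre is named, and all samples shared this genotype, so that no comparison of genotypes was possible. There were 2 samples of m6A immunoprecipitation (IP), in which fragmented mRNA was pulled down with an antibody against m6A, and 2 of input RNA. Only the IP samples had peak lists, each called against its own input, and the input enters as the denominator of the fold enrichment. Fold enrichment is the peak caller's ratio of IP to input signal, on a linear scale. The lists hold no expression level, so that the tissue label was not checked against markers. They hold no read counts either, so that the depth behind each value is unknown, and a missing peak cannot be told apart from little RNA or little coverage.

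Ankyrins are adaptors that tie ion channels, exchangers and cell adhesion molecules to the spectrin skeleton beneath the membrane. Spectrins are long tetramers of alpha and beta subunits that cross-link actin. In neurons, ankyrin-G (Ank3) organises the axon initial segment and the nodes of Ranvier, and the beta-IV spectrin encoded by Sptbn4 is held there by it. Ank2 encodes ankyrin-B, and both Ank2 and Ank3 hold a very long exon that is spliced into neuronal giant isoforms. m6A is written by a methyltransferase complex on adenosines within short motifs such as GGAC, and is known for lying in long internal exons and around stop codons.

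The peaks extended furthest over the giant exons, so the sequence at the centre of the strongest shared peak of each is shown, together with the strongest shared peak inside coding sequence of Sptan1, Sptbn1 and Sptbn4. A shared interval is the stretch over which peaks of the 2 replicates overlapped, and strength is the lower of both enrichments. The sequences are from the reference genome (GRCm38.p6, the same chromosome sequences as mm10), in the sense of the transcript, and capitals mark GGAC.
Ank2 chr3:126947184-126947483, minus strand: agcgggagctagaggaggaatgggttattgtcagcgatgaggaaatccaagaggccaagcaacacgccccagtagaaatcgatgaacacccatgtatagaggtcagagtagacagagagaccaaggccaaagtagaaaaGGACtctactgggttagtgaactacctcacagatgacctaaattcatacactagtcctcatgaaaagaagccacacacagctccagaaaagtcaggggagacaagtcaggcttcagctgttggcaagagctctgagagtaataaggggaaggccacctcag
Ank3 chr10:69990848-69991147, plus strand: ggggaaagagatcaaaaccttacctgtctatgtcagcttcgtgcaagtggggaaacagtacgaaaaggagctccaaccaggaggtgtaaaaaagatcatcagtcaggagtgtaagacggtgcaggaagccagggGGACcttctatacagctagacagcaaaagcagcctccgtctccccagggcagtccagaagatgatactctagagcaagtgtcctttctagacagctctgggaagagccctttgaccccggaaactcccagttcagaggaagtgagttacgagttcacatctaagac
Sptan1 chr2:30002231-30002429, plus strand: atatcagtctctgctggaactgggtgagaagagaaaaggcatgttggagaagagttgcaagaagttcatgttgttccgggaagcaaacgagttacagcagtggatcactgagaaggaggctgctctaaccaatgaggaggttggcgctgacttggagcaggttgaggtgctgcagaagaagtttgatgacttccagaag
Sptbn1 chr11:30117787-30117986, minus strand: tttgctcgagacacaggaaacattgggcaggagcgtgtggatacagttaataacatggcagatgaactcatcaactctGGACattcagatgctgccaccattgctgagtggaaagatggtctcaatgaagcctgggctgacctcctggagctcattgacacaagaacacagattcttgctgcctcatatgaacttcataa
Sptbn4 chr7:27364280-27364479, minus strand: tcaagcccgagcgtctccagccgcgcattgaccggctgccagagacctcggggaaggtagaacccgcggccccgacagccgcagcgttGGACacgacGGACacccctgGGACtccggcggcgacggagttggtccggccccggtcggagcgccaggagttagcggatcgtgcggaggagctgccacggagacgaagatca
The Ank2 and Ank3 windows of 300 nt lie in the giant exons and hold 1 GGAC each, which in Ank2 is followed by T. The Sptan1 window of 199 nt, in exon 23 of 57, holds none. The Sptbn1 window lies in exon 26 of 36 and holds 1 GGAC, and the Sptbn4 window lies in exon 31 of 36 and holds 3.

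The Ank3 giant exon was covered by m6A peaks over most of its length. It lies at chr10:69986089-69993762 on the plus strand, measures 7674 nt, and is exon 6 of 9 of the incomplete transcript Ank3-244. It is absent from the complete transcript Ank3-231 that represents the gene elsewhere in this text. Replicate 1 had 6 peaks over it and replicate 2 had 8, which formed 8 shared intervals. Peaks covered 81.3% of the exon in replicate 1 and 64.0% in replicate 2, and 63.5% was covered in both. The exons of Ank3-231 were covered in both replicates over 18.2% of their 9963 nt. Stretches without a peak in either replicate made up 18.2% of the giant exon, and the longest of them ran over 464 nt, from 6429 to 6892 nt after the exon's 5′ end.

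The strongest peaks of the Ank3 giant exon lay side by side in its middle. From 3087 to 4281 nt, replicate 1 had a peak of 4.33-fold enrichment, and from 3143 to 4268 nt replicate 2 had one of 3.09-fold. The next pair ran from 4408 to 5355 nt at 3.96-fold in replicate 1 and from 4469 to 5352 nt at 3.18-fold in replicate 2. In the replicate 2 list these stood at the percentiles 82.4 and 84.4 of all peaks, and in the replicate 1 list at 81.8 and 76.0. Within each pair, both ends of the peaks lay close together.

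Toward the ends of the Ank3 giant exon the replicates divided the signal differently. At the 5′ end, replicate 1 had 1 peak of 2263 nt at 2.27-fold, which began 42 nt before the exon's first base. Replicate 2 had 2 peaks there, at 1.78-fold (307 to 1226 nt) and 2.12-fold (1348 to 2248 nt). A short pair followed at 3.16-fold in replicate 1 (2359 to 2719 nt) and 1.54-fold in replicate 2 (2388 to 2636 nt). Further along, 1 replicate 1 peak at 2.43-fold (5694 to 6428 nt) faced 2 replicate 2 peaks at 2.13-fold and 1.53-fold. At the 3′ end, a replicate 1 peak of 782 nt at 2.63-fold met a replicate 2 peak of 200 nt at 1.60-fold. Where 1 peak of replicate 1 faced 2 of replicate 2, 2 shared intervals were counted. With overlap of at least 50% of both peaks there were 4 shared intervals over the exon, and with midpoints within 100 bp there were 3.

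The Ank2 giant exon had fewer peaks with wide gaps between them. It lies at chr3:126941610-126947807 on the minus strand, measures 6198 nt, and is exon 37 of 46 of Ank2-208, the representative transcript. Replicate 1 had 5 peaks and replicate 2 had 4, with 4 shared intervals, or 2 with midpoints within 100 bp. Peaks covered 51.5% of it in replicate 1, 57.7% in replicate 2 and 46.7% in both, while the other exons of Ank2-208 were covered in both over 21.2% of 8107 nt. The strongest shared interval was the one nearest the 5′ end of the exon. The pair at 101 to 852 nt (replicate 1) and 114 to 833 nt (replicate 2) had 3.96-fold and 2.42-fold enrichment. The neighbouring pair at 1020 to 1985 nt and 1024 to 1992 nt had 4.17-fold and 2.04-fold.

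The remaining Ank2 pairs had lower enrichment in replicate 1, and their ends differed more. At 3164 to 3845 nt replicate 1 had 2.55-fold enrichment, while the replicate 2 peak ran from 2883 to 3834 nt at 1.57-fold. At 5271 to 5812 nt replicate 1 had 2.92-fold, and the replicate 2 peak at 2.05-fold continued from 5262 nt to the last base of the exon. One further peak, at 4108 to 4358 nt and 1.78-fold, was called in replicate 1 alone. The largest gaps without a peak in either replicate were 890 nt (1993 to 2882 nt) and 903 nt (4359 to 5261 nt).

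**Figure D1:**
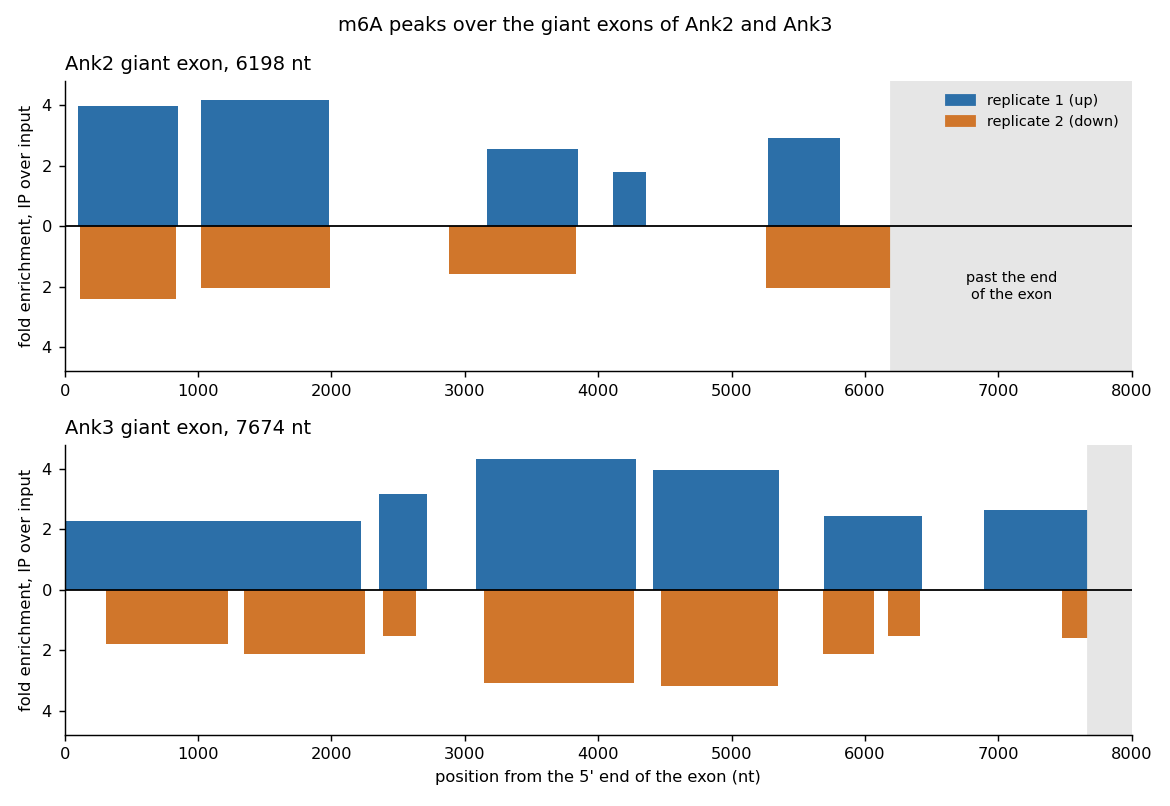
Peaks over the giant exons of Ank2 (6198 nt) and Ank3 (7674 nt) by distance from the exon's 5′ end in nt. Blocks show each peak's extent and its fold enrichment of IP over input, replicate 1 upward in blue and replicate 2 downward in orange, and grey marks positions past the exon's end. Ank3 peaks cover 63.5% of the exon in both replicates and Ank2 peaks 46.7%, with the tallest replicate 1 blocks of Ank2 toward the 5′ end.

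Set beside other long exons, the giant exons ranked higher by number and extent of intervals than by share covered. Among 1398 internal coding exons of at least 1000 nt in any coding transcript, 890 had a shared interval. With 8 shared intervals at overlap of at least 1 bp, the Ank3 giant exon was at rank 1 by their number, with 3 exons at that number. Stricter overlap rules gave it 4 or 3 intervals, and ranks under them were not made. By bases covered in both replicates it was at rank 6, and by length at rank 13. The Ank2 giant exon was at rank 25, rank 22 and rank 23 by the same measures. By percent covered in both replicates they were at ranks 345 and 545. The median over all 1398 exons was 28.8%, and over the 890 with a shared interval it was 56.1%, which lies between the values of Ank2 and Ank3. Over the 167 exons of at least 3000 nt, closer to them in length, the median was 21.01%, below both giant exons. Only 106 of these 167 exons had a shared interval, and those without one count as uncovered in this median. The median over the 106 alone was not taken, so that it is unknown whether the giant exons lie above it.

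The giant exons differed more in GGACT than in GGAC. The sense strand of the Ank3 giant exon held 37 GGAC and 3 GGACT, and that of the Ank2 giant exon held 26 GGAC and 12 GGACT. In Ank3, 27 of the GGAC (73.0%) lay in bases covered in both replicates, 3 in bases covered in neither and 7 in bases covered in 1 replicate. This was 5.54 GGAC per kb in covered and 2.15 per kb in uncovered sequence. In Ank2 the counts were 13, 7 and 6, or 4.49 per kb in covered and 3.01 per kb in uncovered sequence. Over the 777 internal coding exons of at least 1000 nt with a shared interval in representative transcripts, the densities were 5.96 and 2.97 per kb. The GC content differed little between covered and uncovered bases, at 50.9% and 51.0% in Ank3 and 50.4% and 48.9% in Ank2.

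GGACT, the longer form that contains GGAC, lay in bases covered in both replicates at 8 of 12 sites in Ank2 and 2 of 3 in Ank3. The 2 pairs of Ank2 peaks nearest the 5′ end held 4 of these sites, at 247, 466, 1580 and 1915 nt from the 5′ end of the exon. In Ank2 the density of GGACT was 2.76 per kb in covered and 0.86 per kb in uncovered sequence. In Ank3 it was 0.41 and 0 per kb, on only 3 sites. Over the 777 long exons named above it was 1.46 and 0.60 per kb. Within the Ank3 giant exon, the strongest peak of replicate 1 (3087 to 4281 nt) held 10 GGAC in its shared part and no GGACT. A match of letters does not show which adenosine was methylated, and a peak does not resolve single bases.

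Both replicates showed peaks on all 6 genes. Ank1 had 8 peaks in replicate 1 and 7 in replicate 2, with 5 shared intervals. Ank2 had 14 and 10 peaks with 9 shared intervals, and Ank3 had 13 and 15 with 14. Sptan1 had 7 and 9 peaks with 5 shared intervals, Sptbn1 had 11 and 9 with 6, and Sptbn4 had 14 and 19 with 12. Of all protein-coding genes, 45.6% (9999) had a shared interval over an exon, with a median of 2. Among those 9999 genes, Ank3 was at rank 10, Sptbn4 at rank 22, Ank2 at rank 79, Sptbn1 at rank 309, and Ank1 and Sptan1 at rank 554. Genes with more exon sequence can hold more peaks. Per kb of exon, Sptbn4 had 1.25 shared intervals, whereas the other 5 genes had 0.257 to 0.402 and the median gene 0.40. Exon sequence here joins all annotated transcripts, and so depends on how many are annotated. It was 9563 nt from 7 transcripts for Sptbn4, 35004 nt from 27 for Ank2 and 34838 nt from 47 for Ank3. The representative transcripts of the 6 genes differ less, from 8018 nt (Sptan1) to 14305 nt (Ank2), with 8747 nt for Sptbn4.

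**Figure D2:**
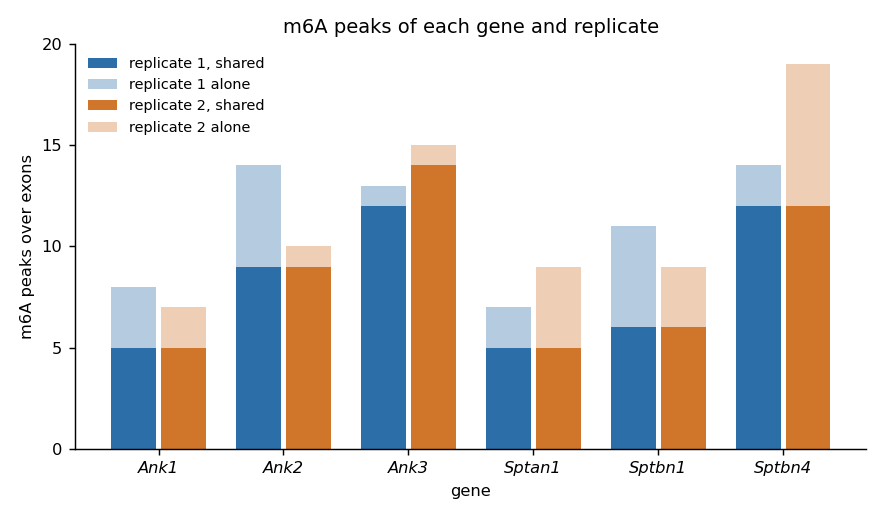
Number of m6A peaks over exons of each gene (y axis) in replicate 1 (blue) and replicate 2 (orange). Dark parts are peaks that overlap a peak of the other replicate and pale parts are peaks of that replicate alone. Sptbn4 had 7 peaks in replicate 2 alone, and Ank2 and Sptbn1 had 5 each in replicate 1 alone.

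Of the replicate 1 peaks of the 6 genes, 49 overlapped a replicate 2 peak, 73.1% (95% Wilson interval 61.5 to 82.3), and over all peaks of replicate 1 the share was 60%. Of the replicate 2 peaks, 51 were shared, 73.9% (62.5 to 82.8), beside 77% of all peaks of that list. The intervals cover counting error only, and peaks of 1 gene are not independent. At a fold enrichment of at least 2, the 6 genes had 37 peaks in replicate 1, 28 in replicate 2 and 21 shared intervals. The 18 peaks of each replicate without a counterpart fell mostly in coding exons, 11 in replicate 1 and 13 in replicate 2. Shared intervals were mostly coding too, with 23 of 51 in coding sequence and 12 in the giant exons. The share over the peaks of all genes was not taken.

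Enrichment was higher in replicate 1 in 41 of 49 matched pairs (83.7%), beside 77.9% of 22457 pairs over all peaks. The median log2 ratio of replicate 1 over replicate 2 was 0.40 over the pairs of the 6 genes and 0.37 over all pairs. The medians over the pairs were 2.43-fold in replicate 1 and 1.89-fold in replicate 2, and over all pairs 3.03-fold and 2.33-fold. The genes' peaks were thus lower in enrichment than the typical pair in both replicates. Across the 49 pairs Spearman's rho was 0.502, and across all pairs 0.634, as a description of peaks that share their libraries.

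**Figure D3:**
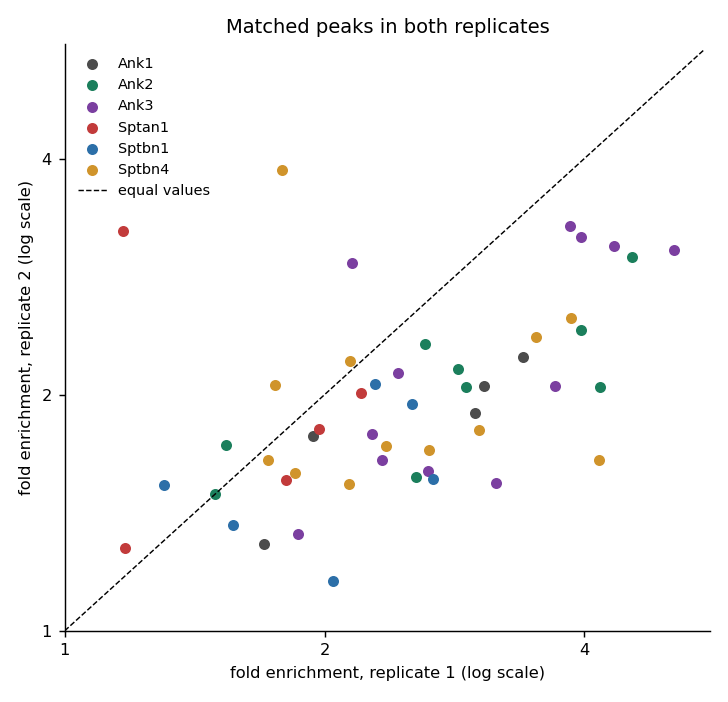
Fold enrichment of the 49 matched peak pairs in replicate 1 (x axis) and replicate 2 (y axis), both on log scales, coloured by gene, with the line of equal values dashed. Of the points, 41 lie below the line, and a Sptan1 and a Sptbn4 pair stand far above it.

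The positions of the 51 shared intervals were read from their midpoints on the representative transcript. There were 23 in coding sequence, 12 in the giant exons, 8 in 3′ UTRs and 3 in 5′ UTRs. A further 3 had the midpoint in an intron beside an exon and 2 in an exon of another coding transcript. The ankyrins held 7 of the 8 intervals in 3′ UTRs, and also most of the 3′ UTR sequence. Their 3′ UTRs measure 2240 nt (Ank1), 2343 nt (Ank2) and 3627 nt (Ank3). Those of the spectrins measure 352 nt (Sptan1), 1101 nt (Sptbn1) and 909 nt (Sptbn4). The giant exons are coding too, and besides these 12 intervals the ankyrins held 6 of the 23 in other coding sequence, and the spectrins 17.

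**Figure D4:**
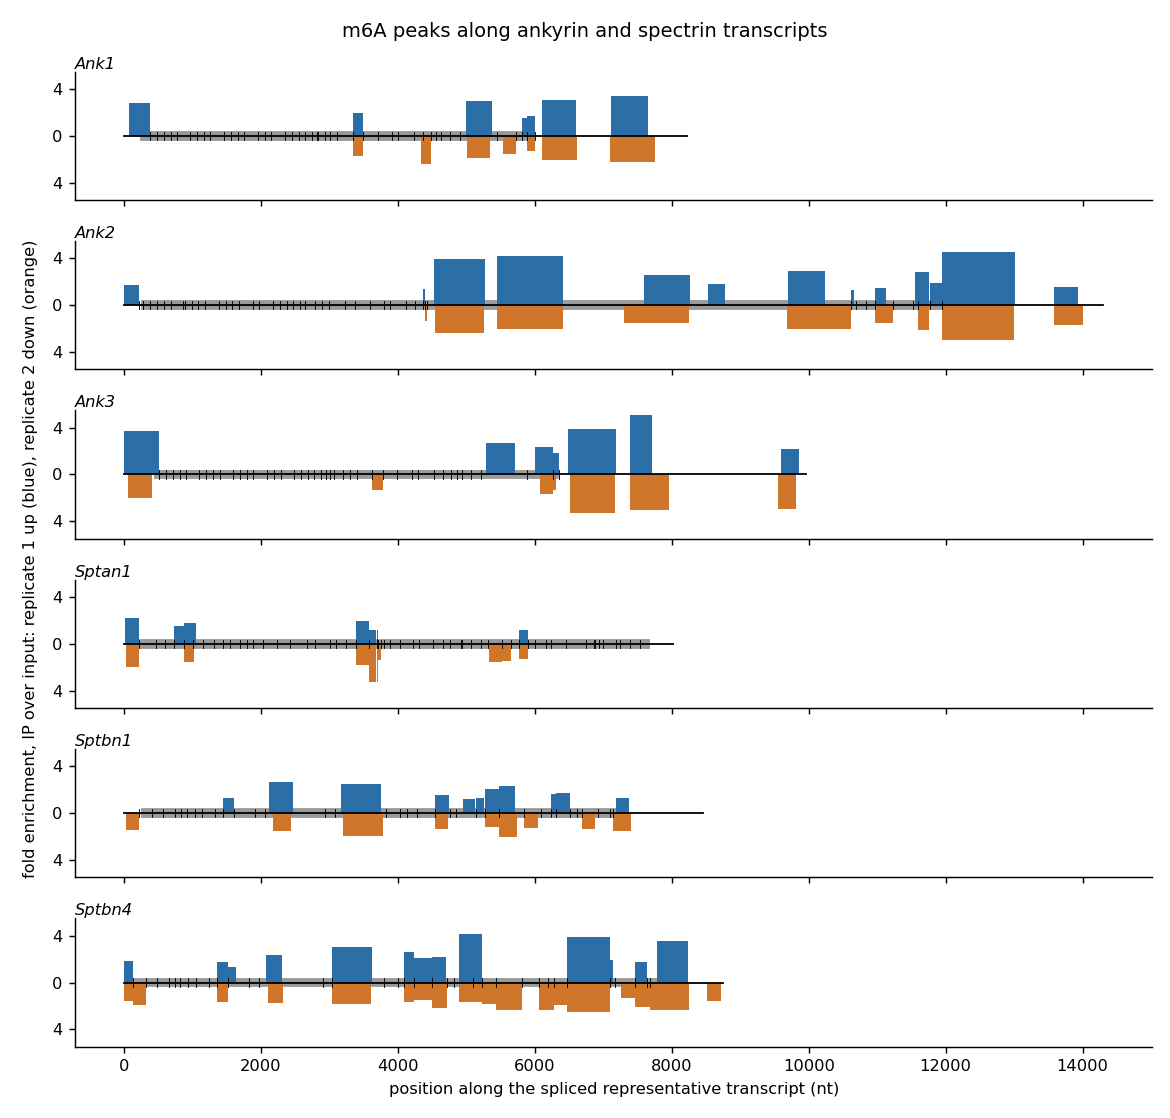
Peaks along the spliced representative transcripts of the 6 genes (x axis, nt from the transcript's 5′ end). Blocks show fold enrichment of IP over input, replicate 1 upward in blue and replicate 2 downward in orange, the grey bar is the coding sequence and thin marks are exon borders. The Ank3 transcript shown lacks the giant exon, and the wide blocks in the middle of Ank2 are those of its giant exon.

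Long internal coding exons held shared intervals far more often than short ones. Over representative transcripts of all genes with a shared interval, 5.77% of internal coding exons under 100 nt held one, 6.91% at 100 to 199 nt, 16.1% at 200 to 499 nt, 77.7% at 500 to 999 nt and 89.8% at 1000 nt and over. In the 6 genes the counts were 2 of 96 (2.08%), 12 of 105 (11.4%), 8 of 41 (19.5%), 6 of 7 (85.7%) and 1 of 1. The share lay below that of all genes under 100 nt and above it at 100 to 199 nt, and the number of exons in the longer classes was small. The exception among the 7 exons of 500 to 999 nt was exon 40 of Ank3 (679 nt), which had a peak in replicate 1 alone (2.68-fold).

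**Figure D5:**
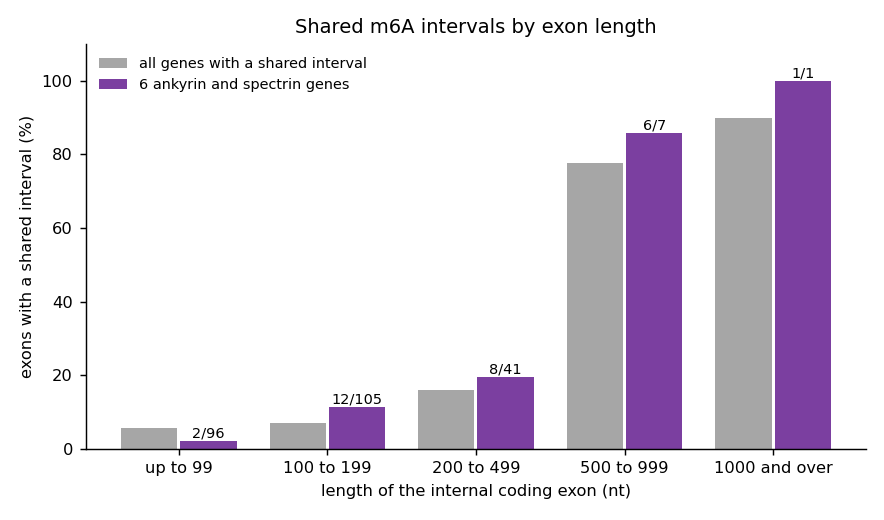
Percent of internal coding exons with a shared interval (y axis) by exon length in nt (x axis), for all genes with a shared interval (grey) and the 6 genes (purple), with counts above the purple bars. Both rise from under 20% below 500 nt to 77.7% and 6 of 7 exons at 500 to 999 nt.

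The ankyrins differed in where outside the giant exons their peaks lay. Ank1 encodes the ankyrin first described in red cells and is also expressed in neurons. Its strongest shared interval was in the 3′ UTR at chr8:23149394-23149934, with 3.40-fold enrichment in replicate 1 and 2.24-fold in replicate 2. Another 3′ UTR interval at chr8:23148384-23148878 had 3.06-fold and 2.05-fold, and exon 39, of 538 nt, had 2.99-fold and 1.89-fold. All 5 of its shared intervals were higher in replicate 1. The strongest Ank1 peak of all was in replicate 1 alone, at 3.43-fold over an exon of another coding transcript. This peak, another one of replicate 1 alone and the strongest 3′ UTR interval overlap exons of Gm15816 as well. The library kit does not mark strand, so that the gene of origin cannot be told apart there.

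In Ank2 the strongest interval was not in the giant exon but at the end of the transcript. At chr3:126922924-126924093 a peak of 4.54-fold in replicate 1 and 2.99-fold in replicate 2 spanned 1170 nt in both and covered the stop codon. Its midpoint lay 449 nt after the stop codon, in the 3′ UTR. Exon 44 held an interval at 2.85-fold and 2.16-fold, and exon 41 one at 1.49-fold in each replicate. The strongest exonic peak of Ank2 in 1 replicate alone was in exon 45, at 1.92-fold in replicate 1. The Ank2 interval at chr3:127161569-127162118 (2.62-fold and 2.32-fold) lay in an exon of the transcript Ank2-221 and also over Gm16958, which is annotated on the opposite strand.

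Ank3 had its strongest shared interval in the 3′ UTR, at chr10:70023987-70024653, with 3.85-fold in replicate 1 and 3.28-fold in replicate 2. The next one downstream, chr10:70024859-70025183, had the highest replicate 1 value of all 6 genes, 5.08-fold, and 3.06-fold in replicate 2. Another 3′ UTR interval, 3367 nt after the stop codon, had the higher value in replicate 2 (2.15-fold and 2.94-fold). At the 5′ end, the first exon held an interval of 353 nt at 3.70-fold and 2.05-fold in the 5′ UTR. The giant exon thus reached 4.33-fold in replicate 1 and 3.18-fold in replicate 2, and the 3′ UTR 5.08-fold and 3.28-fold.

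Among the spectrins, Sptan1, which encodes the alpha-II subunit, had low enrichment, with a median over its peaks of 1.53-fold in replicate 1 and 1.56-fold in replicate 2. Sptbn1 had medians of 1.64-fold and 1.41-fold, and the other 4 genes had 2.14-fold to 2.89-fold and 1.88-fold to 2.05-fold. The strongest shared interval of Sptan1 was in the 5′ UTR of exon 1 at chr2:29965586-29965908, with 2.20-fold in replicate 1 and 2.01-fold in replicate 2. Its internal exons are short, with a median of 135 nt and a longest of 297 nt. No shared interval lay in its 3′ UTR, which measures only 352 nt. The replicates disagreed at chr2:30003220-30003873, over exons 24 and 25 and the intron between, with 1.17-fold in replicate 1 and 3.24-fold in replicate 2. The strongest peak of the gene was in replicate 2 alone, at 4.00-fold, over an exon of another coding transcript.

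Sptbn1, which encodes beta-II spectrin, had all 6 of its shared intervals in coding sequence. The strongest was in exon 26, at chr11:30117765-30118010, with 2.29-fold in replicate 1 and 2.06-fold in replicate 2. Exon 16 held 2.53-fold and 1.95-fold, and exon 14 held 2.67-fold and 1.56-fold. The peaks in 1 replicate alone, 5 in replicate 1 and 3 in replicate 2, had at most 1.71-fold enrichment.

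Sptbn4 had shared intervals from the 5′ UTR to the 3′ UTR. The strongest, in exon 31 at chr7:27364071-27365167, had 3.87-fold in replicate 1 and 2.51-fold in replicate 2 and covered the whole exon of 620 nt. The rest of this interval of 1097 nt lay outside annotated exons of the gene. Exon 16 held 3.02-fold and 1.80-fold. The last exon, with the stop codon and 3′ UTR, held 3.52-fold and 2.37-fold at chr7:27356890-27357352, where the gene Gm20479 also has an exon. Replicates differed at exons 23 and 24 (4.16-fold and 1.65-fold) and at chr7:27396317-27396516 (1.79-fold and 3.87-fold), in opposite directions. Of these 2 intervals, 331 of 492 nt and 28 of 200 nt lay on exons. The strongest exonic peaks of Sptbn4 in 1 replicate alone were both in replicate 2. They lay over exons 28 and 29 at 2.37-fold and over exon 26 at 2.36-fold.

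The beta-spectrin genes share an exon pattern in which exons 14 and 16 are long, and exon 16 held a shared interval in each of Sptb, Sptbn1 and Sptbn4. Exon 16 measures 757 nt in Sptb and Sptbn1 and 751 nt in Sptbn4. Within it the interval ran from 1 to 656 nt in Sptb (5.11-fold and 2.96-fold) and from 130 to 677 nt in Sptbn1. In Sptbn4 it ran from 1 to 561 nt. Exon 14 also held an interval in each of these genes. Sptb is not among the 6 genes and was compared for its similar exons.

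At the stop codon, 4 of the 6 genes had a shared interval with its midpoint within 200 nt, beside 45.8% of 9920 genes with a shared interval. In Ank1 the midpoint lay 39 nt before the last base of the stop codon (1.70-fold and 1.29-fold), in Ank3 139 nt before (2.33-fold and 1.65-fold) and in Sptbn1 77 nt before (1.30-fold and 1.54-fold). In Sptbn4 it lay 171 nt after. Within 100 nt of the stop codon there were 2 such genes. Ank2 and Sptan1 had none, although the Ank2 interval named above covered the stop codon. Of the 4 intervals, only that of Sptbn4 had more than 2-fold enrichment in both replicates.

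GGAC was present in 44 of the 51 shared intervals (86.3%), beside 82.0% of 19998 shared intervals placed on representative transcripts of all genes, with median lengths of 334 and 338 nt. GGACT was present in 25 (49.0%), beside 43.0%. In windows of 100 nt around the midpoint, GGAC was present in 43.1% and 46.3%. The shares of the 6 genes were thus close to those of all shared intervals. By gene GGAC was present in 5 of 5 intervals of Ank1, 8 of 9 of Ank2, 13 of 14 of Ank3, 4 of 5 of Sptan1, 4 of 6 of Sptbn1 and 10 of 12 of Sptbn4.

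The partners of ankyrins and spectrins were read from a list of 30 genes, of which 29 were found with a complete coding sequence. It held other spectrins, adducins, members of the Epb41 family, cell adhesion molecules and channels that bind ankyrin. Shared intervals were present in 26 of the 29, beside 45.6% of all protein-coding genes, with a median of 4 and a highest number of 10. Of these 26 genes, 15 had one within 200 nt of the stop codon, beside 45.8% of all genes with a shared interval. Slc4a1, the anion exchanger known from red cells, had no peak in either replicate, and Add3 had 1 unshared peak in each. Of the sodium channels that ankyrin-G anchors, the strongest shared interval of Scn2a had 5.94-fold and 4.53-fold enrichment and that of Scn8a had 4.75-fold and 3.38-fold. Both were chosen as examples after their values were seen, and other channels of the list exceeded Scn8a in both replicates.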

How the data were processed

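Whole brain m6A-seq of 4 samples was analysed, of which the 2 IP samples had peak lists. According to the methods and labels, the authors trimmed reads with Cutadapt and Trimmomatic, aligned them to mm10 with TopHat (the submitters' processing notes name TopHat2 2.0.9, and the methods another release), kept uniquely mapped reads and called peaks with MACS2 for each IP replicate against its own input, keeping duplicates. The deposited values are each peak's start, end and fold enrichment, a ratio of IP over input. Kept duplicates can raise the ratio of peaks built on few molecules, and the ratio is unstable where input coverage is low. Depth is unknown.

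Peaks were set against GENCODE M21 with both ends counted (shortest peak 200 nt). No peak passed the end of its chromosome, and 99.0% of 21719 start codons read ATG. The representative transcript was the longest with a complete coding sequence of at least 95% of the gene's longest. Overlap was at least 1 bp and was checked on simulated data and against bedtools 2.31.1. Scripts ran in Python 3.11.15 with scipy 1.17.1. Motifs were searched on the sense strand in genomic sequence of the intervals, which can reach into introns. All 6 genes were described, with the strongest shared peak by the lower of both enrichments, the peak at the stop codon, the strongest peak in 1 replicate alone and every peak of the giant exons. The beta-spectrin exons were compared after the values were seen. Some items are not reported here. Members and lists were chosen with earlier results of these data known, and no test was made. The alternatives were other overlap rules, midpoints, representative exons, enrichment of at least 2, merging within 100 bp, other stop codon windows and motifs, and 1 replicate alone.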

Additional observations from a re-analysis of the deposited data

How the results depend on the processing

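Of 46 alternatives to 11 values, 29 stayed within 1.5 times the count or within the error of the value, and 17 moved further. Only 2 replicates from 1 group stand behind each value, and the depth is unknown. No paired analysis was possible because a single group had peak lists. With fold enrichment of at least 2, the 6 genes kept 37 peaks in replicate 1, 28 in replicate 2 and 21 shared intervals, 56.8% of the replicate 1 peaks were shared, the Ank3 giant exon had 4 shared intervals, and 35.9% of the Ank2 and 42.4% of the Ank3 giant exon was covered in both replicates. With midpoints within 100 bp, 60.9% of replicate 2 peaks were shared, and the giant exons had 2 (Ank2) and 3 (Ank3) shared intervals. With overlap of at least 50% of both peaks, the Ank3 giant exon had 4. A window of 100 nt around the stop codon left 2 genes with an interval. GGACT in place of GGAC was present in 49.0% of the intervals, and GGAC in 43.1% of windows of 100 nt, as shorter windows and longer motifs hold fewer matches. From 1 replicate alone, the Ank2 giant exon was covered over 51.5% to 57.7% and the Ank3 giant exon over 64.0% to 81.3%. An alternative chosen after seeing the data, the stop codons of all complete coding transcripts, gave 5 genes.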

Other observations

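Peaks within introns of the 6 genes, away from any exon, numbered 23 in replicate 1 and 3 in replicate 2. The whole lists held 38533 and 30134 peaks, of which 60.0% and 77.0% overlapped a peak of the other replicate. Intronic peaks of all genes were not counted, so that it is unknown whether this split is particular to the 6 genes. Ank3 had 9 and 1, Ank2 had 7 and 0, Sptbn1 had 3 and 1, Ank1 had 2 and 0, Sptbn4 had 2 and 1, and Sptan1 had none. The strongest, at chr10:69754792-69755122 within Ank3, had 7.50-fold enrichment in replicate 1 and 3.45-fold in replicate 2, above every exonic peak of the 6 genes in replicate 1. A Sptbn1 intronic peak was also shared, at 2.39-fold and 2.97-fold. In Ank2, intronic peaks of 5.96-fold, 5.86-fold and 5.83-fold were called in replicate 1 alone.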
